A study of Mus musculus with 24 samples.

Results

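Of 17339 autosomal H3K27ac peaks in the male day 4 list, 7881 had no vehicle peak in the same place, and 717 of these gains overlapped a peak of the male day 6 or day 8 list. These 717 regions are described here. They were chosen by the male peak lists themselves: a day 4 peak was taken when no male vehicle peak overlapped it by 1 bp or more and when a day 6 or day 8 peak did. The 717 regions were 9.10% of the gains (95% interval 8.48% to 9.75%) and 4.14% of the autosomal day 4 peaks. With every male list cut to its 17482 highest scores, the length of the shortest, the same rule gave 2991 regions and 24.9% of gains, and with no vehicle peak allowed within 1 kb it gave 313 regions and 5.17%. Presence, position relative to vehicle peaks and tag counts in the male lists are therefore descriptions of how the regions were picked, and no test was made on them. The data held 1 list per group, with no value for single libraries, so nothing below has a replicate error, and the 95% Wilson intervals given with percentages cover counting error only.

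The animals were male and female mice, C57BL/6 in the labels and C57BL/6J in the study's methods, 10 weeks old when treatment began, with no engineered allele. The weekly regimen, given intraperitoneally over 4 weeks, was prednisone at 1 mg/kg on 1 day a week and DMSO vehicle on the other days, and vehicle groups received DMSO. In the prednisone groups, quadriceps myofibers were isolated 4, 6 or 8 days after the last prednisone injection. Each of the 8 groups (vehicle, day 4, day 6 and day 8 in each sex) had 2 H3K27ac libraries and 1 input library, and its peaks were deposited as 1 list. Lists were compared by place, and presence in a list was not read as a level.

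H3K27ac is acetylation of lysine 27 of histone H3, a mark of active promoters and enhancers that histone acetyltransferases such as p300 and CBP deposit and deacetylases remove. Prednisone is converted to prednisolone, which binds the glucocorticoid receptor (GR), a nuclear receptor that enters the nucleus and binds DNA, often at enhancers held open by other factors. In skeletal muscle such enhancers are commonly bound by MEF2, TEAD and basic helix-loop-helix factors, and GR targets there include regulators of amino acid, lipid and glucose use.

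Sequences within the regions are shown first, as examples of the motif and base composition results. They were read from the plus strand of GRCm38.p6 (mm10). The first set holds the GR consensus, which is ACANNNTGT, in capitals, at a region in an intron of Zbtb16 (chr9:48724757-48724846), at one in an intron of Insr (chr8:3188029-3188118) and at one between genes, nearest to Irs1 (chr1:82200154-82200243). Zbtb16 encodes a zinc finger repressor known as a GR target, Insr the insulin receptor and Irs1 its adaptor.
Zbtb16: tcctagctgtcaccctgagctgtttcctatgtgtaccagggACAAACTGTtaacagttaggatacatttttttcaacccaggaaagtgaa
Insr: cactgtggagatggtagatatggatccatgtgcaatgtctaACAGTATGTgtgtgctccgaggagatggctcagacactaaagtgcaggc
Irs1: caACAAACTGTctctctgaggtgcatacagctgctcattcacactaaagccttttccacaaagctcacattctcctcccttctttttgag

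The second set shows motifs of muscle and growth factors in regions nearest to sarcomere genes and Klf15, again in capitals. Titin (Ttn, chr2:76981049-76981168, intron) had an SRF CArG box, the site of serum response factor. The region nearest to Myh2 (chr11:67138709-67138908, intergenic), a fast myosin heavy chain gene, had a pair of TEAD sites, one on each strand. The one nearest to Klf15 (chr6:90495751-90495870, intergenic), a GR target that controls amino acid catabolism, had an AP-1 site followed by an E-box.
Ttn: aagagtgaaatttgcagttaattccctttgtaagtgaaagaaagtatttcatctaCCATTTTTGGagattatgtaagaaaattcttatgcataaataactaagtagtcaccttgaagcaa
Myh2: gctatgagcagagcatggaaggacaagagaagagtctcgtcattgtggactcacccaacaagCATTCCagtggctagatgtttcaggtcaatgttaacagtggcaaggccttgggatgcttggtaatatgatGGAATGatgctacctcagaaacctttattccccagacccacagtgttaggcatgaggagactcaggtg
Klf15: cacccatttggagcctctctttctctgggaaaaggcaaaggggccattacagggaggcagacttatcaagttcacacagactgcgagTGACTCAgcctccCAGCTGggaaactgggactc

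The third set shows the MEF2 consensus, the site of the myocyte enhancer factor 2 family, in capitals. The regions are examples picked after their values were seen, from the 9 with a match. They lay in introns of Ralgapa1 (chr12:55820076-55820135) and Hlcs (chr16:94303736-94303795) and between genes nearest to Helt (chr8:46285731-46285790).
Ralgapa1: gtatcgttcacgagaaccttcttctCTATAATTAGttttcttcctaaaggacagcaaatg
Hlcs: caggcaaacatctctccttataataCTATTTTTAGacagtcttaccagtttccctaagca
Helt: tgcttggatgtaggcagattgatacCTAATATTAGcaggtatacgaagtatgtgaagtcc

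The last set shows the central 150 bases of an Mbnl1 intron region found on both later days (chr3:60530156-60530305), an Insr intron region found at day 6 only (chr8:3187894-3188043) and a region found at day 8 only, near the start of Zfp280d (chr9:72275425-72275574). The Zfp280d region was taken as the CpG-rich region of highest score seen at day 8 only whose window met no exon, after its values were seen. These windows are single examples and do not stand for all regions of their days. The Mbnl1 region had the lowest GC content of the 130 regions found on both days, 33.1% against a median of 47.7%. CpG-rich regions were 25.4% of those 130 and 28.1% of the regions found at day 8 only. Capitals mark CG dinucleotides, of which the Mbnl1 and Insr windows had 0 and the Zfp280d window 8.
Mbnl1: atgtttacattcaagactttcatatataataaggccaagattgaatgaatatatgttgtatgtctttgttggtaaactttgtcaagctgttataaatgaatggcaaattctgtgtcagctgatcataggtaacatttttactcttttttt
Insr: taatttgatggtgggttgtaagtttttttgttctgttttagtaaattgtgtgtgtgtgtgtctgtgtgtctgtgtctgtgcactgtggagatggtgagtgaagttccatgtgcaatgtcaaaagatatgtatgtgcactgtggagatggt
Zfp280d: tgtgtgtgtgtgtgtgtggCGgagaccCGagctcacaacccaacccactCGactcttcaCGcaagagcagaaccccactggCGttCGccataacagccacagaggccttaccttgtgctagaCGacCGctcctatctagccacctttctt

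The lists differed in depth and length before any region was picked. H3K27ac depth, recovered from the tag counts, ranged from 7.52 M tags for male day 4 to 50.5 M for male day 6, and the male lists for vehicle and days 4, 6 and 8 held 87600, 17482, 32188 and 20499 peaks. Depth and treatment day cannot be told apart with 1 list per group. The promoters of 10 myofiber marker genes lay in peaks of the male vehicle list for 8 genes, of day 4 for 3 genes and of days 6 and 8 for 7 genes each. Among these markers, the promoters of Acta1 (skeletal actin) and Ckm (muscle creatine kinase) lay in a peak of the 7 other lists and not of male day 4. The male day 4 list had promoter peaks for 3 of 10 endothelial, 2 of 10 fibroblast, 1 of 10 satellite cell, 2 of 10 smooth muscle and pericyte, 3 of 10 Schwann cell, 3 of 10 adipocyte and 0 of 10 leukocyte markers. In the same order, male vehicle had 10, 1, 4, 6, 4, 2 and 3. Male day 6 had 4, 1, 2, 2, 2, 2 and 1, and male day 8 had 2, 1, 2, 2, 2, 1 and 0. Day 4 was thus below vehicle for most of these cell types, as for myofibers, and above it for fibroblast and adipocyte markers. The part of other cells in the regions was not tested.

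By day, 457 of the 717 regions (63.7%) overlapped a day 6 peak and 390 (54.4%) a day 8 peak. Most were found on a single later day, 327 at day 6 only and 260 at day 8 only, and 130 (18.1%) were found on both. For comparison, 72.7% of the 9458 day 4 peaks that were already present in vehicle were found again at day 6 or 8, and 47.4% on both days. The overlaps were often partial: 187 regions were fully covered by later peaks, and 267 were covered over less than 50% of their length. The 457 overlaps at day 6 fell in 451 distinct peaks, so a few neighbouring regions shared a later peak, and the 390 at day 8 fell in 390. Just inside the threshold were regions that shared 1 bp (Ubqln4), 4 bp (Sptbn5) and 5 bp (Rnf220) with a later peak. Just outside it were gains separated from the nearest later peak by 3 bp (Jph1), 4 bp (Arntl) and 7 bp (Rassf9).

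The regions were weak peaks at day 4. Their median was 12 H3K27ac tags, for which the 95% Poisson interval is 6.2 to 21, and 648 of 717 had fewer than 20 tags. The middle of the distribution ran from 10 to 15 tags, 72.1% of the regions had the shortest length in the list (501 bp), and 48.3% had its lowest findPeaks score, 7. The other 7164 gains had a median of 11 tags, and the peaks also present in vehicle 16. The median fold over input was 8.32 in both the regions and the other gains.

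Regions stood out by tag number at 3 places. An intergenic region of chromosome 9 (chr9:35305114-35305864, 37.6 kb from Rpusd4) had 16811 tags against 895 scaled input tags and was found in all lists but male vehicle, where a peak lay 1.03 kb away. A chromosome 14 region (chr14:19415563-19416832, nearest to Gm2237) had 7908 tags against 1340 in input, was found at day 8 and in 0 female lists. The region upstream of Sfi1 (chr11:3194280-3194780) had 71 tags against 33.1 in input, the lowest fold of any region at 2.15. All 3 had far more input tags than the median region, which had 1.5. Repeats took 70.7%, 82.6% and 71.3% of these 3 peaks in the same order, against a median of 16.8% over the regions. The part of repeated sequence in their tags was not tested. Leaving out the chromosome 9 and 14 regions moved none of the 12 results recomputed without them by more than its counting error.

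Many of the regions lay beside a vehicle peak rather than far from one. A vehicle peak was within 1 kb of 404 regions (56.3%), against 19.8% of the other gains, and the median gap was 0.715 kb against 5.06 kb. Vehicle peaks lay within 2 kb on both sides of 175 regions (24.4%), against 6.48% of the other gains, while 100 regions (13.9%) had no vehicle peak within 10 kb. Some of the later peaks themselves ran into vehicle peaks: this was so for 167 of the 457 regions found at day 6 (36.5%) and 123 of the 390 at day 8 (31.5%). Over all peaks of those lists the shares were 36.2% and 52.9%. A total of 489 regions had a later peak that overlapped no vehicle peak. The rule used the vehicle and later lists, so these distances describe the choice and were not tested.

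**Figure D1:**
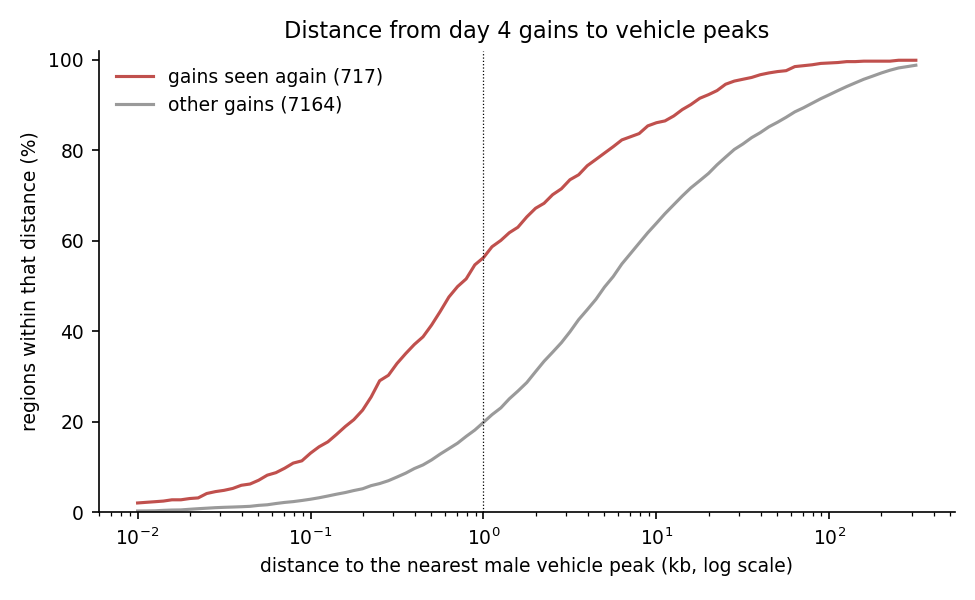
Share of regions (y axis, %) whose nearest male vehicle peak lies within the distance on the x axis (kb, log scale), for the 717 gains seen again and the 7164 other gains; the dotted line marks 1 kb. The curve of the gains seen again is the higher one, at 56.3% against 19.8% at 1 kb.

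The female lists were not used to choose the regions. The female vehicle list held a peak at 244 of the 717 regions (34.0%, 30.7% to 37.6%), near its share of all autosomal male day 4 peaks, 31.5%. In the female day 4 list 550 regions were found (76.7%, background 57.4%), in the day 6 list 602 (84.0%, background 69.9%) and in the day 8 list 630 (87.9%, background 65.0%). The other gains had much lower shares: 2.92% in vehicle, and 13.7%, 33.4% and 23.5% at days 4, 6 and 8. Peaks also present in male vehicle, taken over all scores, had higher shares than the regions in each list, at 52.9%, 88.9%, 96.4% and 94.7%. In all 4 lists the intervals of the 3 sets did not overlap.

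Individual regions recurred widely in females. Of the 717, 203 (28.3%) were in all 4 female lists, against 1.48% of the other gains, and 43 (6.00%) were in none, against 61.2%. A further 288 (40.2%) were in every female prednisone list and not in female vehicle. That share was 24.7% of all autosomal day 4 peaks and 8.53% of the other gains. It was 35.8% of the peaks also present in male vehicle, so the pattern is not particular to the regions. The female lists are long, between 38861 and 123249 peaks, and when each was cut to its 38861 best peaks the shares at days 4, 6 and 8 were 61.8%, 53.7% and 67.5%. In the other gains they were 9.58%, 15.3% and 15.1%. Among peaks of the lowest score and shortest length, which had a median of 10 tags in each set, the female day 4 list held 68.6% of 283 regions, 10.9% of 4268 other gains and 71.4% of 1819 peaks also present in vehicle. Of the same 283 regions and 1819 peaks, female vehicle held 30.7% and 26.3%, female day 6 held 81.3% and 89.5%, female day 8 held 84.5% and 84.8%, and the intervals overlapped in all lists but day 6. The distance to vehicle peaks went with the shares: in the other gains, 33.9% of those within 1 kb of a vehicle peak and 8.76% of those farther away were in the female day 4 list, against 81.9% and 70% of the regions.

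**Figure D2:**
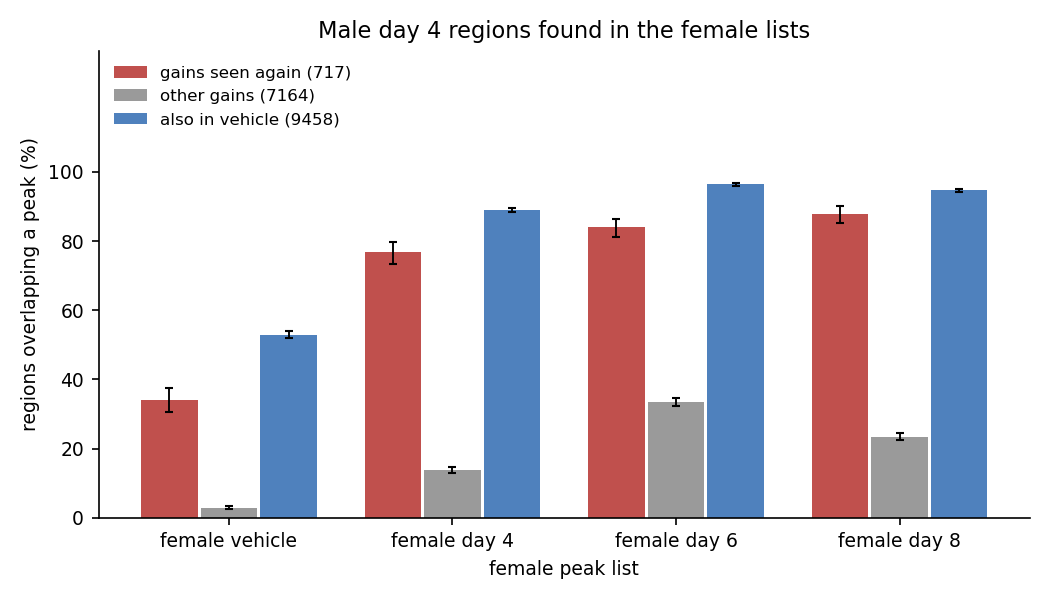
Share of male day 4 regions (y axis, %) that overlap a peak of each female list (x axis) for the 717 gains seen again, the 7164 other gains and the 9458 peaks also in male vehicle; error bars are Wilson 95% intervals (counting error only). In every list the gains seen again stand above the other gains, 76.7% against 13.7% at female day 4, and below the peaks also in vehicle.

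By position the regions were mostly intronic. The centre fell in an intron for 389 (54.3%), between genes for 143 (19.9%), in a promoter (1 kb before to 100 bp after a start) for 118 (16.5%), in an exon for 48 (6.69%) and at a transcription end for 19 (2.65%). Promoters took 3.35% of the other gains and 30.8% of the peaks also present in vehicle, and intergenic sequence took 42.8% and 12.8%. The nearest start of a protein-coding gene was at a median of 6.12 kb, against 28.2 kb for the other gains and 0.639 kb for the peaks also in vehicle. Peaks of the lowest score and length gave promoter shares of 14.5%, 2.60% and 17.1% in the same order. All 19 autosomes held regions, from 24 on chromosome 14 to 64 on chromosome 11.

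**Figure D3:**
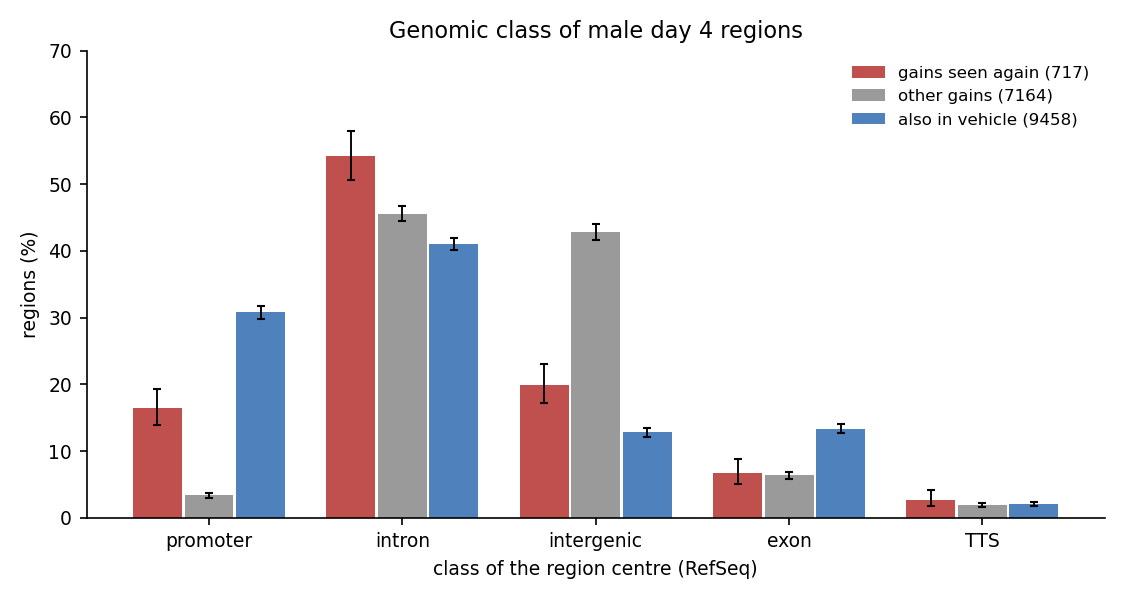
Genomic class of the region centre (x axis, TTS is the transcription termination site) as a share of each set (y axis, %), with Wilson 95% intervals. The gains seen again fall between the other gains and the peaks also in vehicle for promoters (16.5%, 3.35% and 30.8%) and for intergenic sequence (19.9%, 42.8% and 12.8%).

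Base composition followed the same order. A window of 501 bp around the centre was CpG-rich (GC of at least 50% and a CpG ratio, observed over expected, of at least 0.6) in 18.1% of the regions, 3.25% of the other gains and 45.5% of the peaks also in vehicle. Repeats took over 50% of the whole peak, rather than of the window, in 11.9%, 27.1% and 4.16%. The GC box (GGGCGG, the site of Sp1 family factors) was found in 22.7% of regions, 8.31% of other gains and 45.9% of peaks also in vehicle, and in 29.4% of all day 4 peaks.

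Motifs of muscle and steroid factors were counted on both strands with repeats masked. Each motif was counted on its own, so a base could belong to matches of more than 1 motif. The GR consensus (ACANNNTGT), as shown at Zbtb16, Insr and Irs1, was in 63 regions (8.79%, 6.93% to 11.1%), against 9.24% of the other gains and 8.21% of all day 4 peaks. The MEF2 consensus was in 9 regions (1.26%, 0.662% to 2.37%), against 0.489%, 0.352% to 0.679%, of the other gains and 0.732% of all day 4 peaks. Its intervals for the regions and the other gains overlapped by little, and 9 matches leave the share imprecise. The E-box CAGCTG, bound by MyoD family factors, was in 22.5% of regions, 17.4% of other gains and 22.4% of all day 4 peaks.

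Other muscle and growth factor motifs had similar shares in the regions and in all day 4 peaks. The TEAD site GGAATG was in 20.2% of regions and 18.4% of all day 4 peaks, the AP-1 site (TGACTCA or TGAGTCA) in 6.83% and 5.83%, the orphan receptor half-site AAGGTCA in 7.39% and 6.38%, and the SRF CArG box in 1.81% and 1.57%. The CCAAT box was in 36.7% and 35.3%. Motifs typical of CpG-rich promoters were less frequent in the regions than over all day 4 peaks: the ETS site CCGGAAG was in 4.04% against 8.06%, the NRF1 core GCATGCGC in 0.558% against 1.73%, and the CRE TGACGTCA in 0.697% against 1.28%, the last with overlapping intervals. The other gains had lower shares still, at 1.98% for the ETS site, 0.335% for the NRF1 core and 0.307% for the CRE, with intervals that overlap those of the regions for all but the ETS site. A match of letters is a description and does not show that a factor was bound.

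Regions found at day 6 only and at day 8 only differed in composition. The CpG-rich share was 7.34% (4.98% to 10.7%) of the 327 day 6 regions and 28.1% (23.0% to 33.8%) of the 260 day 8 regions, and the median GC content was 45.5% and 55.3%. Day 6 regions lay in promoters less often, at 11% against 18.1%, with intervals that just overlap (8.06% to 14.9% and 13.9% to 23.2%), and had a gene start within 5 kb less often, at 36.4% against 53.5%. They were in the female vehicle list more often, at 34.3% against 18.8%, while in the female day 4 list the shares were 75.2% and 69.2%, with overlapping intervals. The same direction was present outside the regions: peaks also present in vehicle were CpG-rich in 29.5% when found at day 6 only and 49.3% when found at day 8 only, and the whole day 6 and day 8 lists had median GC contents of 44.3% and 50.3%. The part of the lists' own base composition in this difference was not tested.

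The 130 regions found on both days were in each female list more often than those found on a single day. Of the 130, 63.8% (55.3% to 71.6%) were in female vehicle, 95.4% at female day 4, 92.3% at day 6 and 98.5% at day 8. Regions found at day 6 only and day 8 only had 76.8% and 88.8% at female day 6, and 85.9% and 85% at female day 8. At female day 6 the intervals for both days (86.4% to 95.8%) and for day 8 only (84.4% to 92.1%) overlapped. The same direction was present in peaks also found in male vehicle, where 78.5% of those found on both days were in female vehicle, against 50.5% at day 6 only and 42.8% at day 8 only, and 99.8%, 95.3% and 97.1% were at female day 4. Promoters took 26.9% and CpG-rich windows 25.4% of the 130 regions. In the peaks also in male vehicle that were found on both days, the shares were 41.2% and 62.3%.

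**Figure D4:**
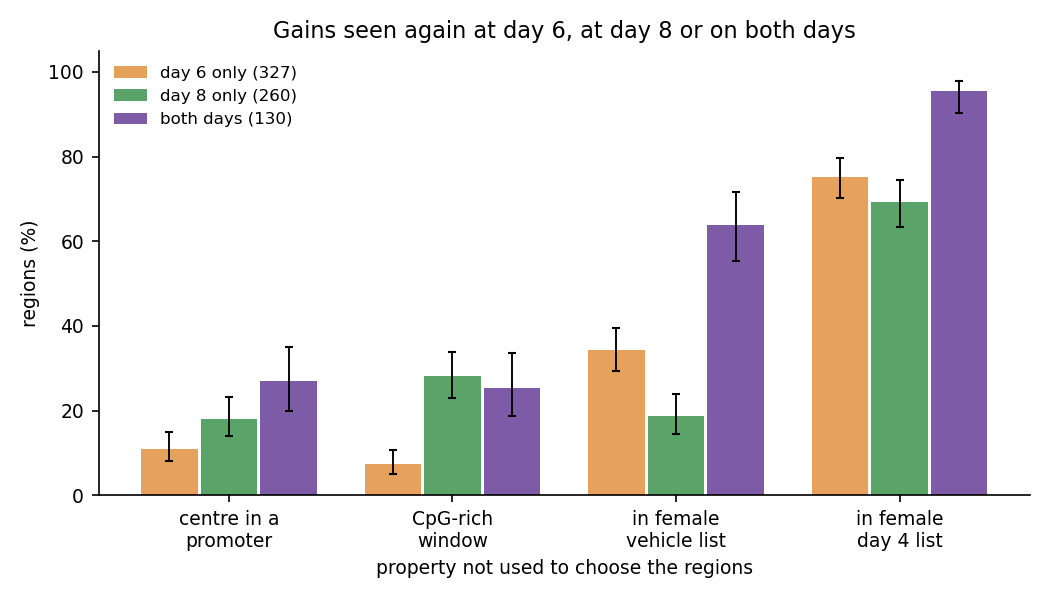
Share (y axis, %) of the regions found at day 6 only (327), at day 8 only (260) or on both days (130) that have each property on the x axis, with Wilson 95% intervals. CpG-rich windows take 7.34%, 28.1% and 25.4%, and presence in the female vehicle list takes 34.3%, 18.8% and 63.8%.

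The nearest starts belonged to 675 protein-coding genes (3.21% of 21000), of which 637 had 1 region, 35 had 2 and 3 had more. Genes on 13 lists of muscle and steroid pathways, chosen with earlier results of these data known, accounted for 39 of 348 (11.2%). Among all gains the shares were 37.4% of list genes and 25.3% of all genes. Among all autosomal day 4 peaks they were 79.6% and 45.5%, so the list genes were nearest to peaks of every kind more often. The nearest start was taken at any distance, which was 438 kb for 1 Mef2c region and 268 kb for the Rplp1 region. A nearest start does not show that a region acts on that gene.

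Genes with more than 2 regions included Mbnl1 with 4 and Mef2c with 3, which were noticed after the counts were seen. Mbnl1 encodes an RNA-binding protein that sets the adult pattern of splicing in muscle, and Mef2c a transcription factor of muscle genes. All 4 Mbnl1 regions lay in introns, between 3.99 and 82.0 kb from the nearest start, and all 4 were found at both day 6 and day 8. The region of highest score (chr3:60529981-60530481) had 16 tags against 0.2 scaled input tags, so its fold over input of 74.0 rests on few input reads. In normalized tags per kb of peak it stood at 42.5 at male day 4, 12.6 at day 6, 14.1 at day 8, 20.2 in female vehicle, 16.3 at female day 4 and 25.5 at female day 8, with no peak at female day 6. The other 3 Mbnl1 regions had 8, 9 and 18 tags at day 4 and were also found in female vehicle, at 19.9, 28.6 and 21.5 normalized tags per kb.

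A level per kb is the mean over the whole peak of a list that overlaps the region, and that peak can be much longer than the region. In males, these levels were near those of the whole lists. The regions had a median of 29.1 normalized tags per kb at male day 4, 13 at day 6 and 14.4 at day 8, and the medians over all peaks of those lists were 29.1, 11.1 and 14.3. In females the medians at the regions were 19.2 in vehicle and 15.2, 35.2 and 23.9 at days 4, 6 and 8, against 17.8, 11.8, 17.2 and 14.7 over the whole lists. The whole lists were also lower at male days 6 and 8 than at day 4, and no change of a region between days was read from these levels.

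Among GR targets, 3 of 26 genes were nearest to a region: Zbtb16 (2 regions), Klf9 (2 regions) and Klf15. Of the 26, 16 were nearest to any gain and 24 to any day 4 peak. The Zbtb16 intron region that holds the GR consensus (chr9:48724437-48724937) lay 25 bp from a vehicle peak and stood at 31.9 normalized tags per kb at male day 4, 15 at day 6, 13.2 at day 8, 17.0 at female day 4, 49.8 at female day 6 and 44.9 at female day 8. The region was absent from female vehicle. The female day 6 and day 8 peaks over it held 1660 and 2360 normalized tags in all. Their levels are thus means over peaks far longer than the 501 bp region. The second Zbtb16 region (chr9:48825991-48826491) was found at male day 6 and in all 4 female lists, with 14 tags against 0.2 scaled input tags, so its fold over input of 64.7 also rests on few input reads. The Klf15 region (chr6:90495370-90495870), 33.0 kb from the Klf15 start, was found at male day 6, at 12.6, and in all 4 female lists, at 10.2 in vehicle and 14.9, 27.6 and 20.2 at days 4, 6 and 8. Klf9, a GR-induced repressor of the clock and of growth genes, had regions 51.7 and 81.6 kb upstream.

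Sarcomere and Z-disc genes were nearest to a region in 6 of 38 cases, among them Ttn, Myh2, Tcap, Tpm1 and Myot, and myofiber markers in 2 of 10 (Ttn and Ckm). Any gain was nearest to 12 of the 38 and 3 of the 10, and any day 4 peak to 27 and 8. The Ttn intron region (chr2:76980694-76981330), in the gene of the giant spring of the sarcomere, had 13 tags and was found in all lists but male vehicle. Its levels were 27.2, 11.7 and 15.5 normalized tags per kb at male days 4, 6 and 8, 21.2 in female vehicle and 21.7, 14.8 and 37.1 at female days 4, 6 and 8. Tcap, which anchors titin at the Z-disc, had a promoter region (chr11:98382605-98383105) that was also found in all lists but male vehicle. The Myh2 region (chr11:67138430-67138930) and the Myot and Tpm1 regions were found in the 3 female prednisone lists and not in female vehicle. The Ckm region (chr7:19414477-19414977) lay 23 bp from a vehicle peak.

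Myogenic regulators had the most members on the lists, with 7 of 20 genes, among them Mef2a, Mef2c, Myog, Tead1, Tead4 and Nfia. Of the 20 genes, 11 were nearest to any gain and 19 to any day 4 peak. Myog encodes the differentiation factor myogenin, and its region (chr1:134275899-134276696, 13.7 kb upstream) had 20 tags at day 4 and was found at male day 8, at 13.7 normalized tags per kb, and at female days 6 and 8, at 26.2 and 21.1. Only the Tead1 region was found on both later male days, by overlaps of 53 and 13 bp. The 3 Mef2c regions were found on a single male day each and in 1 to 3 female lists. These 7 genes thus had 9 regions, of which 8 came from a single later list. Over all 717 regions only 18.1% were found on both days, so this is near the general share.

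Calcium handling genes had a region in 4 of 24 cases (Cacna1s, Cacna2d1, Camk2d and Srl), against 10 for any gain and 19 for any day 4 peak. Cacna1s encodes the voltage sensor of excitation-contraction coupling. Its intron region (chr1:136060199-136060699) stood at 37.1 normalized tags per kb at male day 4, 15.6 at day 6 and 11.2 at day 8, was absent from female vehicle and stood at 21.2, 37.1 and 29.2 at female days 4, 6 and 8. The Camk2d region was in 0 female lists and overlapped the day 8 peak by 12 bp.

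Insulin, IGF1 and PI3K genes had a region in 4 of 29 cases, against 11 for any gain and 26 for any day 4 peak. Insr and Irs1 carried distal regions with a GR consensus, at 91.6 and 91 kb from the start, found at day 6 only and day 8 only. Itga7, the integrin of the myofiber surface, had a region 1.78 kb upstream (chr10:128931674-128932392) found on both days, at 14.3 normalized tags per kb on each, and Rptor, the mTORC1 scaffold, one at day 8. None of the 4 was in female vehicle, which held 34.0% of all 717 regions, and 4 regions are too few to compare with that share.

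Circadian genes had a region in 4 of 19 cases, against 8 for any gain and 16 for any day 4 peak. The Rora intron region (chr9:68750388-68750888), 13.1 kb from the nearest vehicle peak, stood at 39.9 normalized tags per kb at male day 4, 10.6 at day 6 and 17.3 at day 8, and was in the 3 female prednisone lists and not in vehicle. Rora encodes an activator of the clock gene Arntl and Nr1d1 its opposing repressor. Nr1d1 and Cry2 had regions found at day 8 only and day 6 only, and the Cry2 region was in female vehicle and not in female day 4. Npas2 had a region in all 4 female lists.

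The other lists had fewer regions. Lipid metabolism had 3 of 41 genes (Hadhb, Nrip1 and the fat cell regulator Pparg, whose promoter region lay 61.4 kb from any vehicle peak), glucose and glycogen 2 of 29 (Ugp2 and Pgm1), atrophy and proteolysis 2 of 20 (Nedd4 and Smad2), cytosolic ribosomal proteins 2 of 37 (Rplp0 and Rplp1), the dystrophin complex and membrane repair 1 of 23 (Cavin1), the respiratory chain 1 of 33 (Cox7a1) and the neuromuscular junction 0 of 16. In the same order of lists, any gain was nearest to 15, 9, 9, 9, 11, 7 and 7 genes. Cox7a1 encodes a muscle subunit of cytochrome c oxidase, and its intron region (chr7:30184136-30184779) stood at 35.1, 22.4 and 22.6 normalized tags per kb at male days 4, 6 and 8 and was in all 4 female lists. The Nedd4 and Cavin1 regions were also found on both days and in all 4 female lists. Among markers of other cell types, 1 of 10 endothelial (Flt1) and 2 of 10 adipocyte markers (Gpd1 and Pparg) were nearest to a region. The count was 0 of 10 for fibroblast, leukocyte, satellite cell, smooth muscle and pericyte, and Schwann cell markers. The myofiber list had 2 of 10, as the adipocyte list did, and 3.21% of all protein-coding genes were nearest to a region. Lists of 10 genes are too short to compare cell types by these counts.

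**Figure D5:**
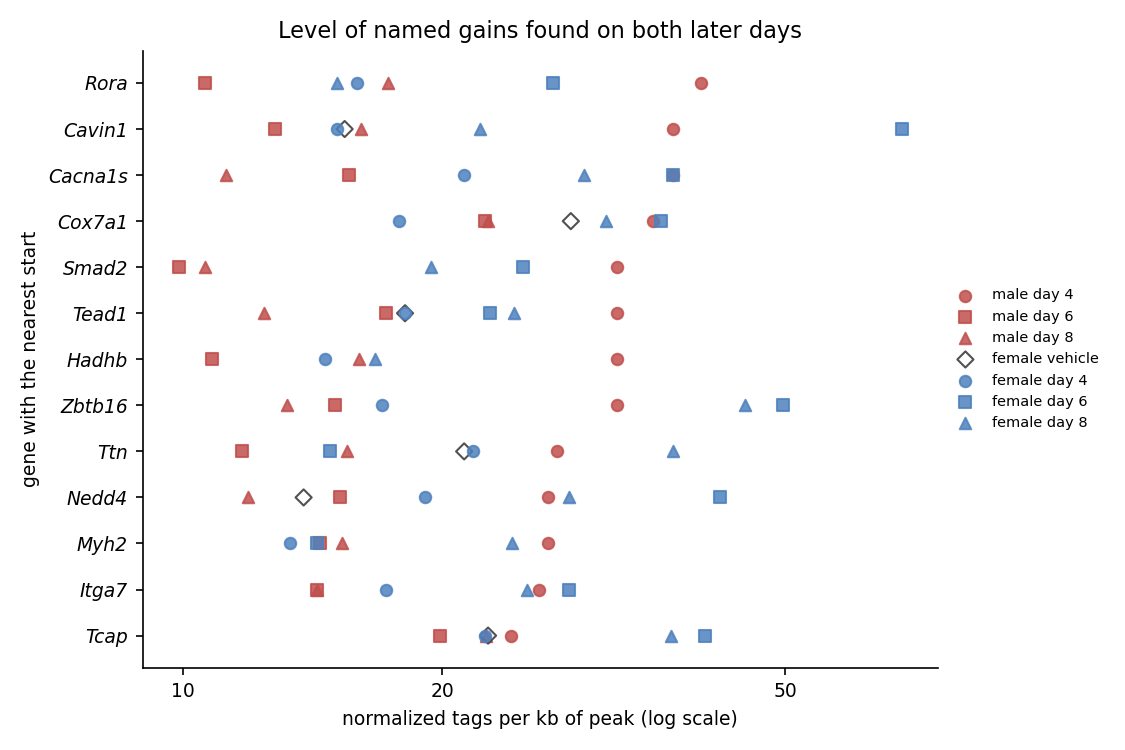
Normalized tags per kb of peak (x axis, log scale, scaled to 10 M tags) in each list for the 13 named regions of the pathway lists that were found at both day 6 and day 8, by gene with the nearest start (y axis); 1 point per list, with no replicate value, and no point where a list has no peak. The male day 4 points (red circles) lie at or right of the male day 6 and day 8 points in all 13, as the lists' own medians do (29.1, 11.1 and 14.3).

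Of the 15 promoter regions of highest score, 5 were found on both later days, 4 at day 6 only and 6 at day 8 only. Among their genes, Phf14 and Zmynd11 encode chromatin readers, Ash2l a subunit of H3K4 methyltransferases, Cdk8 the Mediator kinase and Hey1 a Notch target repressor. The Hey1 (chr3:8667563-8668236) and Cdk8 (chr5:146230822-146231461) promoter regions had 19 tags each and were found on both later male days and in all 4 female lists. The Cdk8 region lay 0.193 kb from a vehicle peak and the Hey1 region 4.63 kb. Cdk8 stood at 39.5, 19.6 and 25.5 normalized tags per kb at male days 4, 6 and 8, and Hey1 at 37.5, 13 and 13.1. Zmynd11, 58.5 kb from any vehicle peak, was found at male day 6 and in the 3 female prednisone lists, and Phf14, 15.7 kb away, likewise.

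Among other regions of high score found on both days were those of Arid2 and Smarca2. Arid2 and Smarca2 encode subunits of SWI/SNF remodeling complexes, and their regions lay 0.721 and 0.190 kb after a start. The Arid2 region (chr15:96287392-96289094) had 44 tags and a fold over input of 33.9, and day 8 peaks covered all 1703 bp of it. The Smarca2 region (chr19:26748343-26748843) had 17 tags. Both were in all 4 female lists, as were Ube2j1, Zfp715, Zeb2 and Filip1. S100a11, 25.9 kb from any vehicle peak, was in 3 female lists. Ccnd2, Slc30a1 and Nfkb1, with the highest folds over input beside Mbnl1 and Zbtb16 (64.7, 74.0 and 92.5), had 0.2, 0.2 and 0.1 scaled input tags, so their folds rest on few input reads.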

How the data were processed

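The data were H3K27ac ChIP-seq peak lists from isolated quadriceps myofibers, 1 list for each of 8 groups of mice. Reads had been trimmed (homerTools) and mapped to mm10 (Bowtie2) by the authors, whose peak calls came from findPeaks of HOMER run for histone marks against input, with a fold of at least 2. How the 2 libraries of a group entered its list is not given in the sources used here. The submitters' processing notes name Bowtie2 2.2.6 and TopHat2 2.1.0. The normalized tag count is a signal that the authors scaled to 10 M tags, and the tags behind male day 4 and female day 6 peaks were deposited as counts, while the other lists give them scaled to input depth. The findPeaks score (a tag number not scaled for depth) and the fold (ratio) over input were used as the authors deposited them. The p-value against input that the authors deposited was not used. Columns without a matching sample or group numbered 0.

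The regions were taken by overlap of 1 bp or more, on autosomes. The members and the gene lists were chosen with earlier results of these data known. The depth behind each list, 7.52 to 50.5 M tags, was recovered from the deposited tag counts. Classes and nearest starts used 45756 curated RefSeq transcripts of GRCm38.p6 and 21000 protein-coding genes; all 435 list entries matched. Base composition and 12 motifs were read in 501 bp around the peak centre, repeats masked for motifs. Since a group had a single list, groups were not tested against each other and p-values were not computed. Percentages carry Wilson 95% intervals.

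Genes and regions were named by rule: up to 8 genes per list by day 4 score, the 15 promoter regions and the 15 regions found on both days of highest score, the 5 highest scores and folds over input, and the 3 regions on either side of the overlap threshold. Some genes that met the rule are not reported here. Others are said to be chosen after their values were seen. Among the alternatives were 50% overlap, lists of equal length, a 1 kb distance from vehicle peaks and stricter input filters, and 2 were added after seeing the data. Overlaps matched bedtools 2.31.1 for 2342 of 2342 values on simulated peaks, and 37 of 37 planted regions and 24 of 24 planted motifs were found. Python 3.11.15, numpy 2.4.6, pandas 2.3.3, pysam 0.24.0, samtools 1.23.1 and matplotlib 3.10.9 were used.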

Additional observations from a re-analysis of the deposited data

Results flagged for a closer look

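Against the direction in males, 17 of the 717 regions (2.37%, 1.49% to 3.76%) were present in female vehicle and absent from the female day 4 list. The share was 0.836% of all autosomal day 4 peaks, 1.12% of the other gains and 0.508% of the peaks also in male vehicle. With 1 list per group this difference between the sexes was not tested. Among them were the Sfi1 region, with 71 tags and high input, the Cry2 region and 1 of the 3 Mef2c regions (chr13:83518065-83518565), and the female vehicle level at that Mef2c region was 30.7 normalized tags per kb.

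Outside the autosomes, 10 male day 4 peaks met the same overlaps, 7 on chromosome X and 3 on unlocalized or unplaced contigs. They were left out of every count. One peak on unplaced sequence had 10221 tags at day 4.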

How the results depend on the processing

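Of 108 values recomputed for 12 results under 14 settings, 72 stayed within the 95% counting interval of the reported share or, for a number of regions or genes, within 1.5 times the reported number, and 36 did not. Among the former were 835 regions when 50% of the day 4 peak had to be covered, 632 without peaks over 50% repeat and 489 when the later peak overlapped no vehicle peak. Cutting each male list to the length of the shortest gave 2991 regions (24.9% of gains), with 58.4% in female vehicle, 94.4%, 97% and 97.8% at female days 4, 6 and 8, 30.1% in promoters, 55.2% intergenic or intronic, 42% CpG-rich and 124 pathway genes. That setting keeps fewer vehicle peaks, by its construction. Asking for no vehicle peak within 1 kb gave 313 regions (5.17%), 28.4% in female vehicle, 70%, 77.6% and 80.5% at female days 4, 6 and 8, 21.4% CpG-rich and 18 pathway genes. Covering 50% of the day 4 peak gave 22.6% in promoters, 66.6% intergenic or intronic and 27.4% CpG-rich. Covering 50% of a region by a female peak gave 22.2% (vehicle), 67.1%, 77.1% and 81.5%, and female lists of equal length gave 61.8%, 53.7% and 67.5% at days 4, 6 and 8. Leaving out peaks over 50% repeat gave 10.8% of gains, and promoters to 1 kb after a start took 29.1%, with 65.4% intergenic or intronic. A later peak that overlaps no vehicle peak, chosen after seeing the data, gave 6.2% of gains, 30.1% in female vehicle, 71.6% and 84% at female days 4 and 8, and 21.7% CpG-rich. The causes of these moves were not tested beyond what the settings themselves change. The shares with a MEF2 or GR consensus moved by less than their counting error in every setting run for them.

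No paired analysis was possible because each group has 1 peak list with no values per library. Leaving out a replicate was not possible for the same reason. The regions had a median of 12 tags at day 4, and absence from a list, male vehicle included, is not absence of the mark.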

Other observations

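Most of the 9 regions with a MEF2 consensus lay outside promoters and were in the 3 female prednisone lists. This holds for the 717 regions too. Of these, 16.5% lay in promoters, 28.3% were in all 4 female lists and 40.2% in every female prednisone list without female vehicle. The pattern is thus not particular to the 9. By male day, 6 of the 9 were found at day 6 only, 2 at day 8 only and 1, nearest to Helt, on both days. The Ralgapa1 region (chr12:55819909-55820616, intron, 0.905 kb after a start) had 13 tags, the Hlcs region (chr16:94303334-94303834, intron) 16 and the Helt region (chr8:46285527-46286259) 14. The regions of Ralgapa1 and Atp5g2 were in all 4 female lists, 6 others were in 3, and the Whamm region was in 0. These genes were noticed after their motif counts were seen.

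Among genes with 2 regions, also noticed after the counts, was Capn3, which encodes the muscle protease calpain 3. Its intron regions lay 0.151 and 0.376 kb from vehicle peaks. One (chr2:120482320-120482820, 16 tags) was found at male day 6 and the other (chr2:120467706-120468206, 15 tags) at male day 8. Both were in all 4 female lists, the first at 19.1 normalized tags per kb in vehicle and 13.5, 36.3 and 20.6 at days 4, 6 and 8, and the second at 21.4 in vehicle and 18.7, 33.9 and 28.5. Hes1, a Notch target repressor, had regions 2.10 and 121 kb from its start, found at male day 8 and day 6 and absent from female vehicle. The Itpkb regions, in introns of an inositol kinase gene, fell in the same male day 6 peak, so they are not independent sightings.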
